A study of Mus musculus with 22 samples.

Results

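The genes described here encode the nuclear subunits of oxidative phosphorylation (OXPHOS) in epithelial cells of the mouse colon. They were chosen by name: a probe counted when its annotation gave a single gene symbol beginning with Nduf and a subunit letter (a, b, c, s or v) and number, Uqcr, Cox4 to Cox8 or Atp5, or equal to Sdha, Sdhb, Sdhc or Sdhd. This gave 118 of the 45281 probes on the array, for 78 symbols. By complex these were 51 probes for complex I, 7 for complex II, 10 for complex III, 21 for complex IV and 29 for complex V. Of these, 103 probes for 72 symbols were detected (detection p under 0.05) on at least 5 of 22 arrays and were tested, among 19993 tested probes in all. One member, Ndufs5-ps, is annotated as a pseudogene, and Ndufa4 was counted with complex I by its name although its protein is now placed with complex IV.

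The mice were male BALB/c animals aged 6 to 10 weeks. The groups were KO mice given antibiotics (KO_antibiotic, 6 arrays), KO mice left untreated (KO_untreated, 6 arrays), wild-type mice given antibiotics (WT_antibiotic, 5 arrays) and wild-type mice left untreated (WT_untreated, 5 arrays). KO mice lack the polymeric immunoglobulin receptor (pIgR), which carries secretory antibodies across the epithelium. Antibiotics, whose names the sources used here do not give, were taken for 17 days. The number of mice behind each array is not stated. Epithelium was released by shaking opened colon in 20 mM EDTA for 25 min, with no sort named.

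Electrons from NADH enter the respiratory chain at complex I (NADH dehydrogenase) and those from succinate at complex II, and complex III passes them through cytochrome c to complex IV, which reduces oxygen. The resulting proton gradient drives complex V, the ATP synthase. Mature colonocytes are known for oxidising butyrate, a product of gut bacteria, through this chain, and most subunits are nuclear genes while a small core is encoded by mitochondrial DNA.

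Promoters of 5 members are shown because these genes carried the differences below: Ndufs4 (2 probes lower in untreated KO mice), Ndufa1 (called in both KO comparisons), Cox7b (the largest difference), Ndufs8 (the single member called higher in untreated KO mice) and Ndufa6 (higher with antibiotics in KO mice). Each runs 5′ to 3′ over 250 bases before and 50 after the RefSeq start, from build GRCm38.p6, at chr13:114388045-114388344, minus strand for Ndufs4, chrX:37191189-37191488, minus strand for Ndufa1, chr19:3912725-3913024, minus strand for Ndufs8, chr15:82354242-82354541, minus strand for Ndufa6 and chrX:106015450-106015749, plus strand for Cox7b. Capitals mark matches on either strand to any of 5 short motifs: the NRF1 core (GCGCA and GCGC with any 1 base between them), the ETS core CCGGAAG, the YY1 core ATGGCGG, the CCAAT box and the TATA box TATAAA.
Ndufs4: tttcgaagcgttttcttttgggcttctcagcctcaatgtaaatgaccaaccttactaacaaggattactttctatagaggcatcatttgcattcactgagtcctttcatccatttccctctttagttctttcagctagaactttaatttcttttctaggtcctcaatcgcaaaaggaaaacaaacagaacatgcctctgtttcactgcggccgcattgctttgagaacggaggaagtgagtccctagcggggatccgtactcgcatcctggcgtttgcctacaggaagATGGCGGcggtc
Ndufa1: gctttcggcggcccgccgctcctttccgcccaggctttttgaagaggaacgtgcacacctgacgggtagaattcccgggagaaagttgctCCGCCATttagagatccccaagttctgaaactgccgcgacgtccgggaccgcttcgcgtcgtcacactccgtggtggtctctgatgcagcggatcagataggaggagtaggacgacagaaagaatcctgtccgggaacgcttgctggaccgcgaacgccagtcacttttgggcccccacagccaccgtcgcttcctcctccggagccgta
Ndufs8: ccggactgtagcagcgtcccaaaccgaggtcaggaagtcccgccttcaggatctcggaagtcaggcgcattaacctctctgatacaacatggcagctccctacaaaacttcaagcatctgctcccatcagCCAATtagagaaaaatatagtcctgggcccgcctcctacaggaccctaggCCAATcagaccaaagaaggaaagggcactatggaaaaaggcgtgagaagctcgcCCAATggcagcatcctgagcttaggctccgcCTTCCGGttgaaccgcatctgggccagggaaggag
Ndufa6: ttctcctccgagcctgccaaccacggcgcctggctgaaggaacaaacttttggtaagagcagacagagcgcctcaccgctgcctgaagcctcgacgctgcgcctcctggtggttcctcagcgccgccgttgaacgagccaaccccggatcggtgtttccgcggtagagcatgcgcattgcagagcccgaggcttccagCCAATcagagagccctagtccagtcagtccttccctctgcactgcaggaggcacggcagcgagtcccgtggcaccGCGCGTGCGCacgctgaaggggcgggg
Cox7b: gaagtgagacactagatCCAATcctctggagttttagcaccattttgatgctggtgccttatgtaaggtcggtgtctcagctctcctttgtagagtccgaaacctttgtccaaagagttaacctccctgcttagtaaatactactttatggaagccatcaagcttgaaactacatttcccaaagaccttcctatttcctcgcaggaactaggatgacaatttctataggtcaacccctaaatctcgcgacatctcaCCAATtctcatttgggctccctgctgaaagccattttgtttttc

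RefSeq promoters were found for 64 of the 78 symbols. The NRF1 core, the motif of a transcription factor known for respiratory genes, was in 16 of them (25.0%), against 5.19% of the 27025 genes with a promoter. The ETS core, bound by factors such as GABPA, was also in 16 (25.0%), against 9.93%, and the YY1 core was in 10 (15.6%), against 4.69%. CCAAT was in 43.8% of OXPHOS promoters and 41.1% of all, and TATAAA in 12.5% and 15.7%. Among the printed promoters, Ndufs4 and Ndufa1 held a YY1 core, Ndufa6 an NRF1 core and a CCAAT box, Ndufs8 an ETS core with 3 CCAAT boxes, and Cox7b 2 CCAAT boxes. A match is a stretch of letters, not a measured binding site.

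On each array 15975 to 18388 probes were detected, and of the 118 OXPHOS probes 97 to 101. Pigr, the disrupted gene, measured by 1 probe, had a log2 level of 9.34 ± 0.60 (SD, n = 6) in KO_antibiotic, 9.99 ± 0.74 (SD, n = 6) in KO_untreated, 11.55 ± 0.27 (SD, n = 5) in WT_antibiotic and 11.85 ± 0.37 (SD, n = 5) in WT_untreated, with the KO and WT ranges apart. All 12 epithelial markers looked at were detected in every group, Epcam among them. In KO_untreated, 5 of 6 array descriptions end in a suffix found in none of the other groups, so suffix and group cannot be told apart there. KO_untreated 1 is the array without it. It shares the rest of its description with KO_untreated 2, but their correlation over probes (0.963) was the lowest of the group (up to 0.986), and they were kept as 2 samples.

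Nearly all OXPHOS probes were well measured: 95 of the 103 tested were detected on all 22 arrays. The other 8 were the probes of Cox6a2, Cox6b2 and Cox8b, both Ndufb11 probes, and 1 probe each of Atp5k, Atp5o and Atp5pb. Complex IV is built from different isoforms of some subunits in muscle and in other tissues. Among the isoform pairs, Cox4i1 and both Cox6a1 probes were detected on 22 arrays, whereas the Cox4i2 probe was detected on 0. Cox6a2, the muscle isoform, was detected on 12 arrays and Cox8b, another muscle isoform, on 7. Cox6b2, known as the testis isoform, was detected by 1 of its 2 probes, on 11 arrays, while Cox6b1 had 2 probes detected on 22. Cox7a1, Cox7a2 and Cox7a2l were detected on 22 arrays, and Cox8c and Cox7b2 on 0. Of the genes outside complex IV, Ndufs1, Sdha and Uqcrfs1 had no tested probe, so these core subunits of complexes I, II and III are not described. No probe was named for any of the 13 mitochondrially encoded subunits.

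The level of the set was summarised per array as the mean deviation of the 103 probes from their mean over all arrays, in log2 units. It was 0.09 ± 0.10 (SD, n = 6) in KO_antibiotic, -0.08 ± 0.03 (SD, n = 6) in KO_untreated, 0.03 ± 0.10 (SD, n = 5) in WT_antibiotic and -0.04 ± 0.08 (SD, n = 5) in WT_untreated. KO_untreated arrays were the most alike, from -0.12 to -0.04. KO_antibiotic arrays lay between -0.03 and 0.21 and did not overlap them, but the gap was narrow. The nearest arrays were KO_antibiotic 5 at -0.027 and KO_untreated 1, the array without the suffix, at -0.039. WT_antibiotic arrays (-0.08 to 0.16) overlapped WT_untreated arrays (-0.17 to 0.03). These array means are given for the main normalisation only.

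By complex, the 16 complex IV probes had mean deviations from 0.01 to 0.34 in KO_antibiotic, against -0.16 to -0.07 in KO_untreated. Complex I (49 probes) lay between -0.02 and 0.19 in KO_antibiotic, against -0.11 to -0.04 in KO_untreated, again without overlap. For complexes II, III and V the same groups overlapped. Within KO_antibiotic, replicates 1 to 3 had the higher values (0.15, 0.21 and 0.18) and also the fewest detected probes of that group (15975, 16624 and 16764), whereas replicates 4 to 6 lay at -0.01, -0.03 and 0.03 with 18343, 18323 and 17675 detected.

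**Figure D1:**
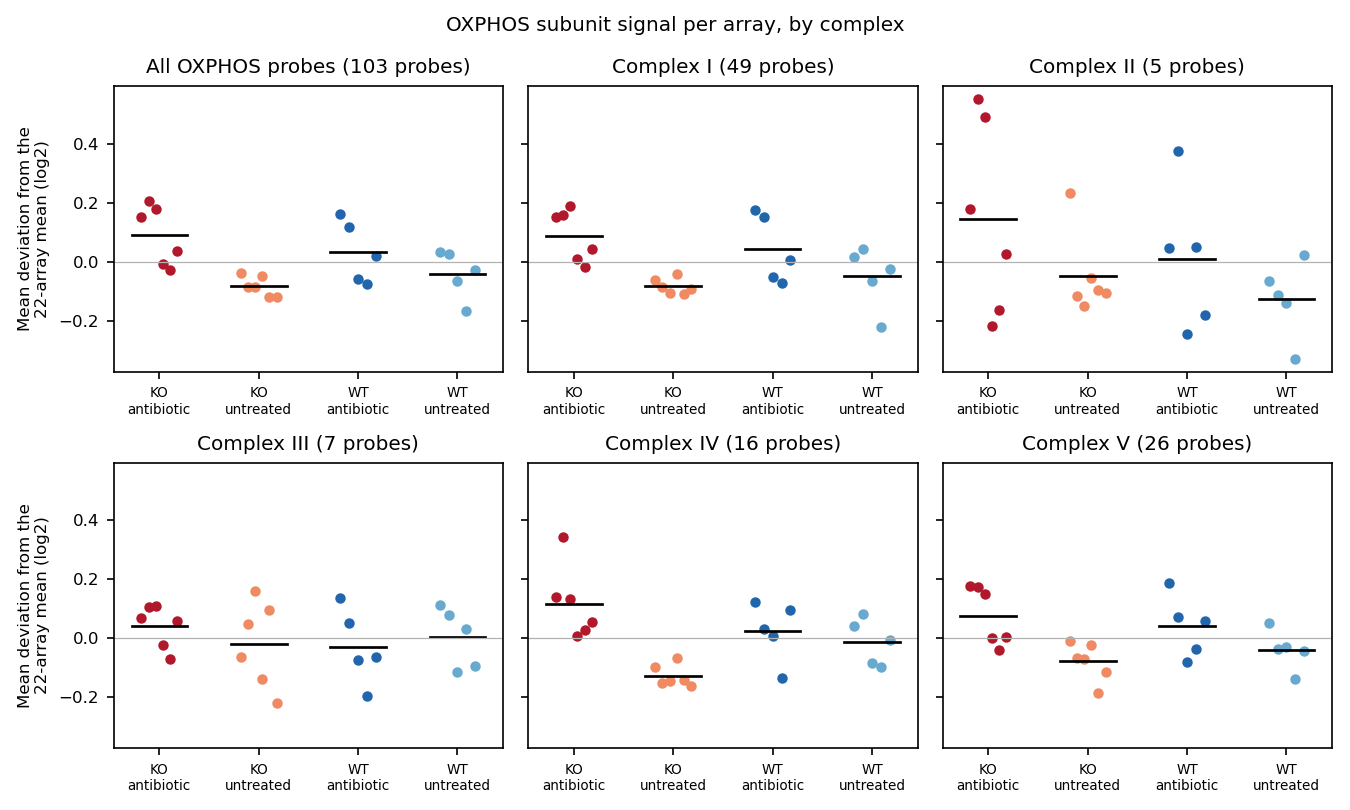
Mean deviation of the tested OXPHOS probes from their mean over 22 arrays (log2 units, vertical axis) for the whole set and for complexes I to V. Points are arrays and lines group means. KO_antibiotic arrays (-0.03 to 0.21) lie narrowly above KO_untreated arrays (-0.12 to -0.04) for all 103 probes, the nearest at -0.027 and -0.039. The complex IV panel shows the same groups apart.

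Each difference is on the log2 scale with its limma standard error (SE), and a probe rose or fell when its Benjamini-Hochberg adjusted p over all tested probes was under 0.05. In untreated mice, KO against WT, 8 of 103 OXPHOS probes were called (7.77%), 1 higher and 7 lower, against 10.9% of all tested probes (5.55% higher and 5.35% lower). In the main fit the share was thus not above the background, but this depended on the setting. With no background correction or the authors' processed values 12 were called, against 10.7% of all probes. With no filter on dim probes 5 were called, against 2.17%. The count was 9 with a strict filter on dim probes (14%), 10 with array weights (16.3%) and 11 with the replicate block (16.8%). It was 7 with each array's count of detected probes in the model (8.3%) and 8 with only these groups (16.3%). The members' median difference was -0.02 against 0.04 for all probes, and it took the other sign with median scaling over all probes (0.21 against 0.10), with scaling over probes detected on all arrays (0.11 against 0.00), with KO_untreated 1 as the only such array (0.07 against 0.08) or without WT_untreated 2 (0.01 against 0.05). Lower genes were Ndufs4, Ndufa1 and Ndufa5 of complex I, Cox7b and Cox6c of complex IV and Atp5mpl of complex V, and the higher one was Ndufs8 of complex I.

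Ndufs4, an accessory subunit of the electron-input end of complex I whose loss in mice gives a Leigh-like disease, fell by 0.76 on the log2 scale (1.69-fold, SE 0.20, adjusted p = 0.0201) with probe ILMN_1234521. Its log2 levels were 10.35, 10.90 and 11.33 in KO_untreated (lowest, median and highest of 6), against 11.53, 11.56, 11.89, 11.62 and 11.69 in WT_untreated. All 6 KO arrays were below the 5 WT arrays. The probe ILMN_2900025 read 9.97, 10.26 and 10.51 in KO_untreated, against 10.60, 10.75, 11.24, 10.78 and 10.75 in WT_untreated, and again the groups did not overlap (log2 -0.58, SE 0.15, adjusted p = 0.0205). The other 2 Ndufs4 probes differed by -0.47 (SE 0.18, adjusted p = 0.0875) and -0.42 (SE 0.17, adjusted p = 0.112) without passing. Between the 4 probes, deviations from the group means correlated with r of 0.57 to 0.77 over the 22 arrays, which share the same RNA.

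Ndufa1, a small membrane subunit of complex I encoded on the X chromosome, had levels of 11.54, 11.91 and 12.56 in KO_untreated, against 12.61, 12.62, 12.27, 12.58 and 12.88 in WT_untreated. It was 1.55-fold lower in KO mice (log2 -0.63, SE 0.18, adjusted p = 0.0276), with 5 of 6 KO arrays below all WT arrays. Ndufa5, an accessory subunit next to the electron-input end, was lower with ILMN_2691460 (log2 -0.49, SE 0.16, adjusted p = 0.0495), from 7.79 to 8.56 in KO_untreated against 8.40 to 8.98 in WT_untreated. Its second probe differed by -0.54 (SE 0.23, adjusted p = 0.12).

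Ndufs8, a core subunit that holds iron-sulfur clusters on the path to ubiquinone, went the other way. Its levels were 11.50, 11.60 and 11.93 in KO_untreated, against 11.06, 11.15, 11.35, 11.13 and 11.10 in WT_untreated. The groups did not overlap, and the gene was 1.39-fold higher in KO mice (log2 0.47, SE 0.13, adjusted p = 0.0234). Complex I thus held called probes in both directions, and its 49 probes had a median of 0.02. Ndufs3, another core subunit, stood 0.29 higher without passing (SE 0.12, adjusted p = 0.109).

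Cox7b, a small subunit of complex IV on the X chromosome, showed the largest fall of the set, 1.75-fold (log2 -0.81, SE 0.22, adjusted p = 0.0222). KO_untreated arrays had 6.81, 7.96 and 8.36, against 8.88, 8.45, 8.74, 8.39 and 8.52 in WT_untreated. The spread among KO arrays was 0.62 (SD), against 0.21 among WT arrays, but the groups did not overlap. Cox6c, an accessory subunit of complex IV, read 12.13, 12.66 and 13.14 in KO_untreated, against 13.10, 13.12, 13.24, 13.13 and 13.10 in WT_untreated (log2 -0.50, SE 0.16, adjusted p = 0.0486). Of 6 KO arrays, 5 lay below all WT arrays and 1 among them.

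Atp5mpl, which encodes a small protein bound to the ATP synthase, was lower with its brighter probe, at 12.83, 13.24 and 13.56 in KO_untreated, against 13.76, 13.73, 13.76, 13.48 and 13.50 in WT_untreated (log2 -0.42, SE 0.13, adjusted p = 0.0377). In complex V, Atp5pb, a stalk subunit, had 4 tested probes, with differences from -0.57 to -0.09 and none past the threshold. The lowest values were -0.57 (SE 0.22, adjusted p = 0.0957) and -0.43 (SE 0.18, adjusted p = 0.118). Atp5o, another stalk subunit, stood 0.53 higher with its dim probe ILMN_1237733 (SE 0.22, adjusted p = 0.112). The brightest of its 3 tested probes, ILMN_1247889, differed by only 0.05.

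Complexes II and III had 0 called probes by limma (1 and 2 at an unadjusted p under 0.05). Their extremes were Sdhc, a membrane anchor of complex II, at 0.41 (SE 0.14, adjusted p = 0.0533), and Sdhb, its iron-sulfur subunit, at -0.10 (SE 0.16, adjusted p = 0.7). In complex III they were Uqcrc2, a core subunit, at -0.32 (SE 0.11, adjusted p = 0.0593), and Uqcr11, a small subunit, at 0.28 (SE 0.13, adjusted p = 0.145). Over the set, 6 probes had groups that did not overlap, against 9.37% of all tested probes: both called Ndufs4 probes, Cox7b, Ndufs8, Uqcrc2 and 1 Atp5pb probe. Of 24 genes with several tested probes, 11 had all of them on 1 side of 0.

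The calls between untreated mice rested on few arrays and on the scaling. Without KO_untreated 1 the count was 0, with 4.28% of all probes called, and over all fits without 1 array that share was 4.28% to 10.4%. It was 2 without WT_untreated 1, 3 without KO_untreated 5, 4 without WT_untreated 3 or WT_untreated 5, and 5 without WT_untreated 2. With median scaling over all probes it was 0 (1.6% of all probes). With KO_untreated 1 as the only such array the set's median was 0.07. That group then has no spread between arrays, so no count is given. The call of Ndufs4 by ILMN_1234521 held in 10 of 11 fits that left out 1 array (highest adjusted p 0.0574), that of Cox7b in 9 of 11 (highest 0.061) and that of Cox6c in 1 of 11 (highest 0.117).

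**Figure D2:**
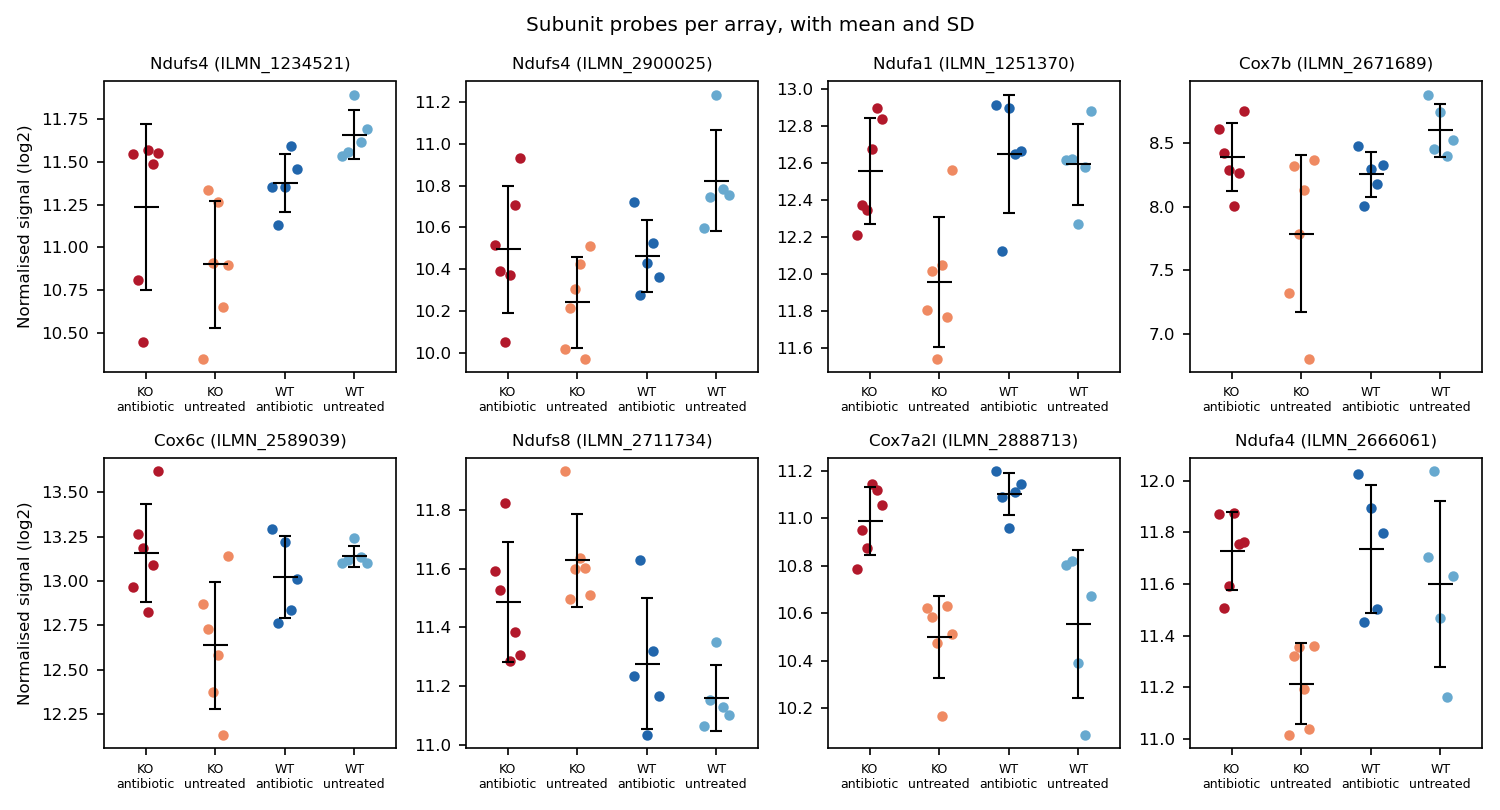
Normalised log2 signal of 8 OXPHOS probes on each array (points), with group mean and SD (bars, n = 6 for KO and 5 for WT groups), on an axis of its own range per probe. Ndufs4, Ndufa1, Cox7b and Cox6c are low in KO_untreated, and Ndufs8 is high there. Cox7a2l in each antibiotic group lies above the untreated arrays of the same genotype.

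Antibiotics in KO mice were the second large comparison. It shares the KO_untreated arrays with the one above, so they are not independent. Against KO_untreated, 8 of 103 probes were called in KO_antibiotic (7.77%), all of them higher. Of the 95 OXPHOS probes detected on all arrays 7 were called, all higher (7.37%, against 15.1% of all such probes). The background was 12.4% of all probes (5.33% upward and 7.06% downward). The median difference was 0.16 for OXPHOS probes and 0.01 for all probes, and 86 of 103 (83.5%) stood above 0 against 51.9% of all. Called genes were Ndufa1, Ndufa4 and Ndufa6, then Cox6c, Cox7a1, Cox7a2l and Cox8b of complex IV, and Atp5c1 of complex V.

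Cox7a2l, a factor that joins complex III and complex IV into supercomplexes, had levels of 10.78, 11.004 and 11.14 in KO_antibiotic, against 10.17, 10.55 and 10.63 in KO_untreated. The groups did not overlap, and it was 1.40-fold higher (log2 0.49, SE 0.13, adjusted p = 0.0106). Ndufa4 read 11.51, 11.76 and 11.88 in KO_antibiotic, against 11.02, 11.26 and 11.36 in KO_untreated, also apart (1.43-fold, log2 0.51, SE 0.14, adjusted p = 0.0142). These 2 calls held in 12 of 12 fits that left out 1 array (highest adjusted p 0.0354).

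Ndufa6, an accessory subunit of complex I, stood at 12.10, 12.33 and 12.70 in KO_antibiotic, against 11.68, 11.79 and 12.06 in KO_untreated, without overlap (log2 0.50, SE 0.15, adjusted p = 0.0323). Ndufa1 had 12.21, 12.52 and 12.90 in KO_antibiotic, against 11.54, 11.91 and 12.56 in KO_untreated (1.51-fold, log2 0.60, SE 0.17, adjusted p = 0.0212). Here the groups overlapped, with 3 of 6 treated arrays above all untreated ones. Ndufa7 and Uqcrh, chosen after their values were seen because their groups did not overlap either, differed by 0.33 (adjusted p = 0.117) and 0.29 (adjusted p = 0.0649). In all, 5 OXPHOS probes had groups that did not overlap, against 6.19% of all tested probes.

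In complex IV, Cox7a1, the heart and muscle isoform of subunit 7a, had 11.14, 11.38 and 11.75 in KO_antibiotic, against 10.65, 10.93 and 11.18 in KO_untreated (1.42-fold, log2 0.51, SE 0.14, adjusted p = 0.0215). Its sister isoform Cox7a2 stood 0.26 higher without passing (SE 0.14, adjusted p = 0.25). Cox6c was at 12.82, 13.14 and 13.62 in KO_antibiotic, against 12.13, 12.66 and 13.14 in KO_untreated (1.43-fold, log2 0.52, SE 0.15, adjusted p = 0.0279). Cox8b was not detected on any KO_untreated array and was detected on 4 KO_antibiotic arrays, which gave an estimated lower bound of 1.13-fold. Its other detections were 3 in WT_antibiotic and 0 in WT_untreated. Cox8b thus passed the detection filter only through the antibiotic groups, so its call cannot be weighed like those of the other probes. Its levels were 4.40, 4.95 and 5.58 in KO_antibiotic, against 4.31, 4.38 and 4.44 in KO_untreated (measured means 0.55 apart, SE 0.17, adjusted p = 0.0368). A dim probe has only a bound when a whole group is not above background. Cox7b differed by 0.60 without passing (SE 0.21, adjusted p = 0.0572).

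Atp5c1, the rotating central stalk subunit of the ATP synthase, was at 12.64, 12.97 and 13.04 in KO_antibiotic, against 12.35, 12.51 and 12.98 in KO_untreated (1.28-fold, log2 0.36, SE 0.11, adjusted p = 0.0375). Complex II and complex III again had 0 called by limma (0 and 1 at an unadjusted p under 0.05), with medians of 0.23 and 0.09. The median was 0.16 for complex I, 0.21 for complex IV and 0.19 for complex V. All tested probes lay on 1 side of 0 for 19 of the 24 genes with several.

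The set's median in this comparison lay between 0.13 and 0.19 when any 1 array was left out, and was 0.10 with median scaling over all probes (all probes -0.03) and 0.16 with each array's count of detected probes in the model. In that model the same 8 probes were called. The count of calls was less steady. It was 0 with median scaling over all probes (6.42% of all probes called). It was 4 with scaling over probes detected on all arrays (10.8%) and 5 with only the KO groups in the fit (10.4%). With KO_untreated 1 as the only untreated array the median was 0.05, and Atp5c1 turned to -0.06. That group then has no spread between arrays, so the 8 calls are not shown to hold without the suffix arrays. The count was 3 without KO_untreated 3 or KO_untreated 5, 4 without KO_antibiotic 2, and 5 without KO_untreated 6, KO_antibiotic 5 or KO_antibiotic 6, while 10.3% to 12.3% of all probes were called in the fits without 1 array. The calls of Atp5c1 and Cox8b held in 2 of 12 such fits each.

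**Figure D3:**
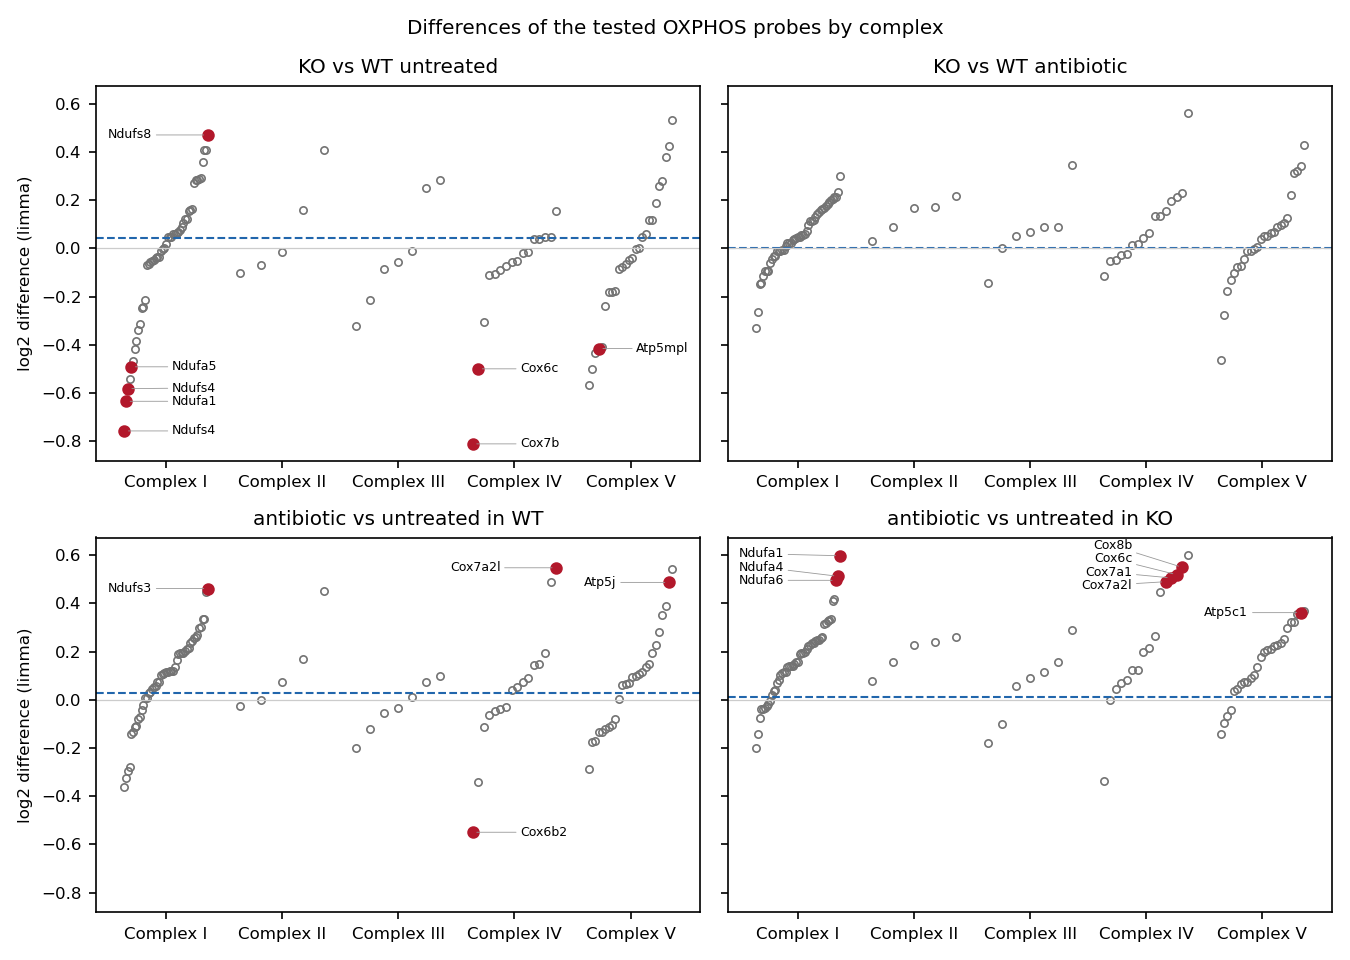
Log2 difference of each of the 103 tested OXPHOS probes (circles) by complex, with probes sorted by value within a complex, in 4 comparisons. Filled circles with a symbol passed at an adjusted p under 0.05 by limma, and the dashed line is the median of all 19993 tested probes (0.04, 0.00, 0.03 and 0.01 by panel). Called probes are mostly low in untreated KO against WT and all high with antibiotics in KO.

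In WT mice antibiotics changed 4 of 103 OXPHOS probes (3.88%), 3 higher and 1 lower, against 4.75% of all tested probes (2.49% higher and 2.27% lower). The median was 0.07, against 0.03 for all, and 70 of 103 stood above 0. Cox7a2l was 1.46-fold higher (log2 0.55, SE 0.14, adjusted p = 0.0239), with 11.20, 11.09, 10.96, 11.11 and 11.15 in WT_antibiotic, against 10.80, 10.82, 10.39, 10.09 and 10.67 in WT_untreated. The groups did not overlap, and this is the one OXPHOS probe called with antibiotics in both genotypes, which are separate arrays. Its difference between the genotypes' antibiotic effects was -0.06 (SE 0.19, 95% interval -0.44 to 0.33).

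Ndufs3, a core subunit of complex I, had 11.31, 11.12, 11.12, 10.90 and 10.87 in WT_antibiotic, against 10.41, 10.91, 10.75, 10.41 and 10.54 in WT_untreated (1.38-fold, log2 0.46, SE 0.12, adjusted p = 0.033). Atp5j, a coupling subunit of complex V, was higher with its dimmer probe (log2 0.49, SE 0.14, adjusted p = 0.0435), at 7.89, 8.11, 7.78, 8.15 and 7.90 in WT_antibiotic, against 7.26, 7.22, 7.54, 7.53 and 7.85 in WT_untreated. Its brighter probe ILMN_2962632 differed by 0.00 (SE 0.14, adjusted p = 0.993), so the probes of Atp5j disagree. Both called probes' groups overlapped in 1 or more arrays.

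Cox6b2 fell and is the one OXPHOS probe called lower with antibiotics. It was not detected on any WT_antibiotic array but was detected on 4 of 5 WT_untreated arrays, which gave an estimated bound of at least 1.20-fold lower. Cox6b2 passed the detection filter mainly through untreated arrays, so its call needs the same care as that of Cox8b. Its levels were 4.29, 4.45, 4.71, 4.33 and 4.44 in WT_antibiotic, against 4.94, 5.42, 4.87, 5.19 and 4.54 in WT_untreated (measured means -0.55 apart, SE 0.14, adjusted p = 0.028). In KO mice it was detected on 1 of 6 arrays with antibiotics and on 6 of 6 without (log2 -0.34, SE 0.13, adjusted p = 0.101). Next by p without passing came Sdhc at 0.45 (adjusted p = 0.0651), Atp5g2, a membrane ring subunit, at 0.54 (adjusted p = 0.126) and Ndufa2 at 0.33 (adjusted p = 0.135). They were followed by Cox8b at 0.49 (adjusted p = 0.142), Ndufv3 at 0.30 (adjusted p = 0.188) and Ndufs4 (ILMN_2900025) at -0.36 (adjusted p = 0.211). Groups did not overlap for 4 probes, those of Cox7a2l, Sdhc, Ndufs7 and Atp5g3, against 5.73% of all tested probes, the last 2 named after their values were seen.

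In WT mice the count was 0 with median scaling over all probes (1.19% of all probes called) or with only the WT groups in the fit (4.89%), and 1 with scaling over probes detected on all arrays (3.24%). It was 0 without WT_antibiotic 1, WT_untreated 3 or WT_untreated 4, 1 without WT_antibiotic 2, 4 or 5, and 2 without WT_untreated 1 or 2, with 2.06% to 6.57% of all probes called in the fits without 1 array. The call of Cox7a2l held in 5 of 10 such fits (highest adjusted p 0.0806), and it was lost with median scaling over all probes and with only the WT groups in the fit.

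With antibiotics, KO against WT, 0 of 103 OXPHOS probes were called by limma (1 higher and 1 lower at an unadjusted p under 0.05), against 0.03% of all tested probes (3.27% unadjusted). The groups overlapped for all 103, while 0.245% of all probes were apart. The median was 0.05 against 0.00, and 69 of 103 stood above 0. Smallest by p were Atp5md, a small ATP synthase subunit, at 0.43 (SE 0.18, adjusted p = 1) and Atp5pb (ILMN_2790486) at -0.46 (SE 0.22, adjusted p = 1). The next by p, none past the threshold, were Atp5k, Ndufa12, Cox6a2, Ndufb11, Ndufs8, the Atp5pb probe ILMN_1249817, Cox7a1 and Cox7a2, with differences from -0.28 (Atp5pb) to 0.56 (Cox6a2). The 8 probes called in untreated mice had these values here: Ndufs4 -0.14 (SE 0.20) and 0.03 (SE 0.15), Cox7b 0.13 (SE 0.22), Ndufa1 -0.09 (SE 0.18), Ndufa5 -0.12 (SE 0.16), Cox6c 0.13 (SE 0.16), Atp5mpl 0.05 (SE 0.13) and Ndufs8 0.21 (SE 0.13).

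Whether the antibiotic effect differed between genotypes was tested as an interaction, KO minus WT. By limma 0 of 103 OXPHOS probes passed (9 higher and 0 lower at an unadjusted p under 0.05), against 0.01% of all tested probes (8.78% unadjusted). The median was 0.08, against -0.03 for all. Cox7b had the largest value, 0.95 (SE 0.31, 95% interval 0.31 to 1.58, adjusted p = 0.465). The other probes at an unadjusted p under 0.05 were Cox6c at 0.63 (SE 0.23, adjusted p = 0.515), both called Ndufs4 probes at 0.61 (SE 0.22 and 0.28, adjusted p = 0.508 and 0.549), Cox7a1 at 0.54 (SE 0.21, adjusted p = 0.516), Ndufa1 at 0.54 (SE 0.25, adjusted p = 0.557) and Atp5mpl at 0.47 (SE 0.18, adjusted p = 0.515). Ndufs5-ps stood at 0.46 and Ndufb8, a membrane subunit of complex I, at 0.38, also among these 9. Above 0.47 but not among them were Ndufs4 with ILMN_2663694 at 0.51 (SE 0.25, adjusted p = 0.574) and Atp5a1 at 0.50 (SE 0.37, adjusted p = 0.674). A change in 1 genotype and not in the other is therefore not shown to differ between them.

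**Figure D4:**
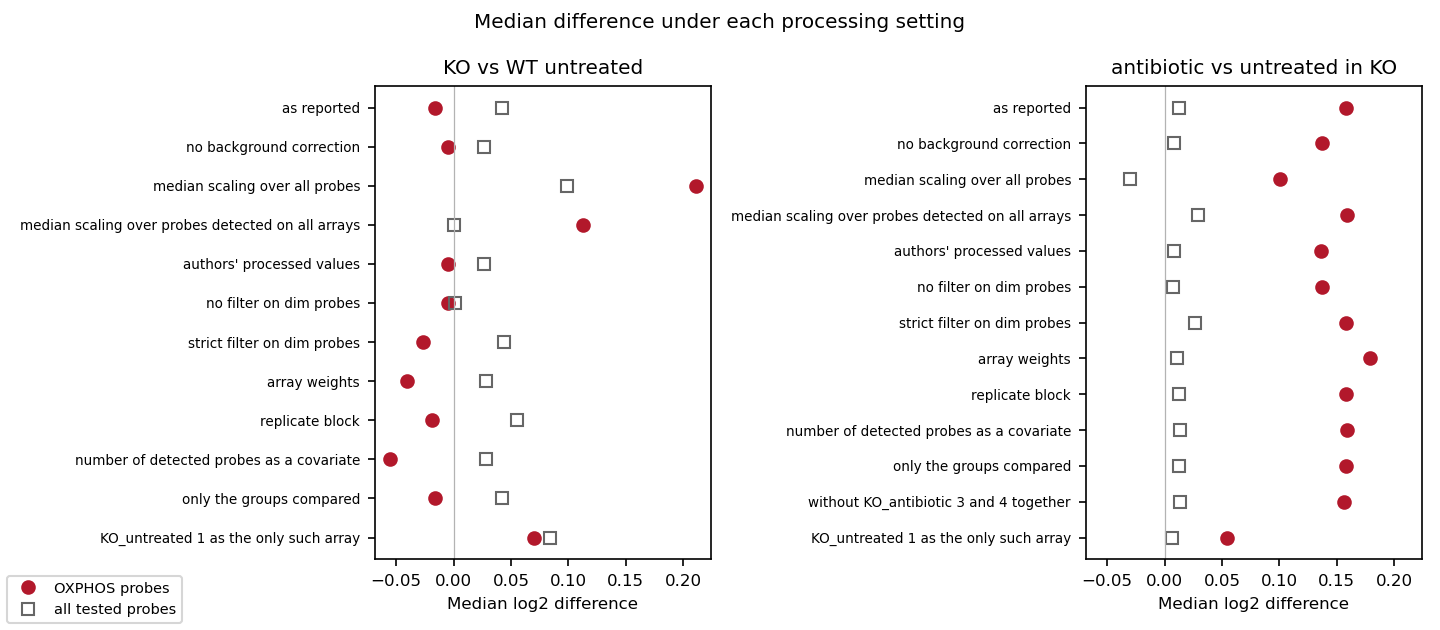
Median log2 difference (horizontal axis) of the tested OXPHOS probes (filled circles) and of all tested probes (open squares) under each processing setting, for untreated KO against WT and for antibiotic against untreated in KO. The OXPHOS median in untreated KO against WT lies near 0 and reaches 0.21 with median scaling over all probes, while with antibiotics in KO it lies above 0 in every setting shown, at 0.05 with KO_untreated 1 as the only untreated array.

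Genes that assemble and regulate the chain were counted beside the subunits, with 1 probe per gene. Their calls, and those of the cell type markers below, were not followed under the other settings or with arrays left out. In untreated KO against WT, Cmc1 and Cox20, assembly factors of complex IV, fell (log2 -0.92, SE 0.18, adjusted p = 0.00454, and -0.68, SE 0.21, adjusted p = 0.0387) and Cox18 rose (log2 0.42, SE 0.13, adjusted p = 0.0439), making 3 of 19 (15.8%, against 10.9% of all tested probes). Among 9 assembly factors of complexes II and III, Sdhaf3 (log2 -0.73, SE 0.20, adjusted p = 0.0248) and Sdhaf4 (log2 -0.43, SE 0.12, adjusted p = 0.0281) fell (22.2%). Of 13 complex I and 4 complex V factors 0 passed by limma (1 each at an unadjusted p under 0.05). Etfa, which passes electrons from fatty acid oxidation to the chain, was the 1 called of 6 other subunits and carriers (16.7%) and fell (log2 -0.82, SE 0.24, adjusted p = 0.0301).

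Regulators counted 1 higher and 2 lower of 17 (17.6%) in that comparison. Ppargc1a, the coactivator PGC-1α of mitochondrial biogenesis, was 2.08-fold lower (log2 -1.05, SE 0.30, adjusted p = 0.0275), with KO_untreated arrays from 6.37 to 8.41 against 8.49 to 8.97 in WT_untreated. Its relative Pprc1 rose by 0.97 (SE 0.24, adjusted p = 0.0156). Nfe2l2, the oxidative stress factor NRF2, was lower (log2 -0.71, SE 0.23, adjusted p = 0.0465). Of 12 tricarboxylic acid cycle genes 1 fell (8.33%), Dld (log2 -0.93, SE 0.22, adjusted p = 0.0139), a subunit of the pyruvate and 2-oxoglutarate dehydrogenases. Of 15 genes on the glycolysis list 0 passed by limma (2 at an unadjusted p under 0.05), with a median of 0.21. The listed name Gpi1 was matched by synonym to Pigq, which is not a glycolysis gene, and Eno1 to Eno1b. Counts and medians of this list include both in every comparison. Of 72 mitochondrial ribosome genes 2 rose and 2 fell (5.56%), with a median of 0.17, led by Mrpl36 (log2 0.69, SE 0.17, adjusted p = 0.0154).

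With antibiotics in KO mice, 4 of 19 complex IV assembly factors rose and 1 fell (26.3%, against 12.4% of all tested probes). The copper chaperone gene Cox17 rose by 0.51 (SE 0.10, adjusted p = 0.00158), Cmc1 by 0.71 (SE 0.17, adjusted p = 0.00621), Coa6 by 0.60 (SE 0.16, adjusted p = 0.0162) and Surf1 by 0.49 (SE 0.15, adjusted p = 0.0308), while Cox18 fell by 0.48 (SE 0.13, adjusted p = 0.013). Sdhaf4 rose as the 1 called of 9 complex II and III factors (11.1%; log2 0.60, SE 0.12, adjusted p = 0.00112). Regulators counted 3 higher and 1 lower of 17 (23.5%): Nfe2l2 (log2 0.97, SE 0.22, adjusted p = 0.0036), the fatty acid receptor gene Ppara (log2 0.68, SE 0.19, adjusted p = 0.0165) and the mitochondrial deacetylase gene Sirt3 (log2 0.43, SE 0.13, adjusted p = 0.026) rose, and Pprc1 fell (log2 -1.18, SE 0.23, adjusted p = 0.00095).

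In the same comparison 1 of 12 tricarboxylic acid cycle genes fell (8.33%), Ogdh (log2 -0.47, SE 0.15, adjusted p = 0.0432). Of the 15 genes on the glycolysis list 0 passed by limma (3 at an unadjusted p under 0.05, median 0.10). Of 72 mitochondrial ribosome genes Mrps31 rose (log2 0.50, SE 0.12, adjusted p = 0.00821) and Mrpl38 fell (log2 -0.52, SE 0.15, adjusted p = 0.0206), making 2.78% called and a median of -0.02. In WT mice the glycolysis gene Pfkp rose with antibiotics (log2 0.61, SE 0.17, adjusted p = 0.0428). It was 1 of the 15 genes on the glycolysis list (6.67%, against 4.75% of all tested probes). By limma 0 assembly factors, cycle genes, regulators or mitochondrial ribosome genes passed. At an unadjusted p under 0.05 these were 1 complex I factor, 2 complex IV factors, 2 cycle genes, 2 regulators and 5 ribosome genes.

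Cell type markers moved with some of these groups, and those of 1 list did not all move one way. Of 6 tested goblet markers 1 rose in untreated KO against WT (16.7%, against 10.9% of all tested probes). With antibiotics 2 fell in WT (33.3%, against 4.75%), and 1 rose and 2 fell in KO (50%, against 12.4%). These shares rest on 6 genes. Spink4 of goblet cells was 2.46-fold higher in KO_untreated than in WT_untreated (adjusted p = 0.00807), and it was 5.76-fold lower with antibiotics in KO mice (adjusted p = 1.73e-06) and 2.83-fold lower in WT mice (adjusted p = 0.00383). Agr2 fell with antibiotics in KO mice (log2 -1.35, adjusted p = 0.000951) and in WT mice (log2 -1.29, adjusted p = 0.01), whereas Tff3 rose in KO mice (log2 0.52, adjusted p = 0.0451) and differed by 0.38 in WT mice without passing (adjusted p = 0.264). Of 6 tested tuft and enteroendocrine markers 3 rose and 1 fell in untreated KO against WT (66.7%), and 2 fell with antibiotics in KO (33.3%). Those that rose were the tuft markers Dclk1, Trpm5 and Avil. The enteroendocrine marker Chgb fell, with a mean of 6.32 in KO_untreated against 7.51 in WT_untreated. Both that fell with antibiotics in KO were tuft markers. Avil of tuft cells was 2.95-fold higher in KO_untreated than in WT_untreated (adjusted p = 0.000333) and 1.87-fold lower with antibiotics in KO mice (adjusted p = 0.00479). The summed normalised intensity of the 6 tested goblet markers of 7 ran from 65473 to 93426 in KO_antibiotic, 94908 to 111559 in KO_untreated, 72550 to 87078 in WT_antibiotic and 77438 to 91318 in WT_untreated. That of the 12 epithelial markers was 73480 to 94852 in KO_antibiotic, 74639 to 92471 in KO_untreated, 83483 to 95961 in WT_antibiotic and 79739 to 94782 in WT_untreated.

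Of the epithelial markers, Krt18 alone passed: it rose in untreated KO against WT (log2 0.72, adjusted p = 0.0109) and fell with antibiotics in KO (log2 -1.24, adjusted p = 9.41e-06) and in WT (log2 -0.60, adjusted p = 0.0407).

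Of 13 leukocyte markers 5 were tested, with sums from 131 to 447 in KO_antibiotic, 148 to 520 in KO_untreated, 141 to 346 in WT_antibiotic and 160 to 396 in WT_untreated. Of 11 markers of stroma, smooth muscle and endothelium 5 were tested, with sums from 141 to 460 in KO_antibiotic, 142 to 297 in KO_untreated, 182 to 367 in WT_antibiotic and 188 to 347 in WT_untreated. Dcn of fibroblasts fell in untreated KO against WT (log2 -1.27, adjusted p = 0.0489) and differed by 1.15 with antibiotics in KO without passing (adjusted p = 0.0572). Of 5 striated muscle markers 2 were tested. Acta1 rose in untreated KO against WT (log2 0.84, adjusted p = 0.039), Mb differed by -0.06 (adjusted p = 0.811), and Ckm, Myh4 and Tnnt3 were not detected often enough. Of 6 adipocyte markers Lep alone was tested. The part of these cell types in the OXPHOS differences was not tested, and in RNA of whole epithelium fewer cells of a type and less RNA per cell cannot be told apart.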

How the data were processed

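RNA of 22 mouse colon epithelium samples was hybridised to Illumina bead arrays. The deposited table holds, per the file headers, a mean signal intensity and a detection p-value per probe and array, not normalised. A second deposited table holds the authors' processed intensity values, which have the same distribution on every array, as quantile normalisation gives; it served as an alternative. The sources used here name no image software or processing steps. Probe symbols came from GEO's platform annotation: 1 symbol for 34885 probes, several for 18 and none for 10378.

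With R 4.3.3 and limma 3.58.1, neqc corrected background, added an offset of 16, quantile normalised and took log2. Probes with a detection p under 0.05 on at least 5 arrays were kept. One limma fit with eBayes held the 4 groups, with Benjamini-Hochberg adjustment over all tested probes at 0.05. The script was tested on simulated data. The number of arrays limits the precision, and since no label says that arrays came from separate mice, p-values cover only the spread between arrays, which may be technical. Each OXPHOS probe was kept apart, and for the other gene lists the brightest tested probe was used.

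Named probes were those past the threshold in a comparison, or the 10 with the smallest p where fewer than 5 passed, the extremes of each complex between untreated KO and WT mice, the isoforms of complex IV, and up to 4 genes per other list. Members and lists were chosen with earlier results of these data known. Same-numbered arrays of different groups correlated over 0.1 in 12 of 31 pairs (-0.38 to 0.53). Differently numbered arrays were not compared, so this cannot show whether the numbers pair the arrays. No label states a pairing, and the main fit used none. Alternatives were other background corrections, scalings, filters on dim probes, array weights, a replicate block, a covariate, smaller fits and arrays left out.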

Additional observations from a re-analysis of the deposited data

Results flagged for a closer look

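In 15 of 168 groups looked at (8.93%), 1 array stood apart from the others by Dixon's test, and chance flags about 1 in 20 groups. All levels are normalised log2 signals, with the range of the group's other arrays in brackets.

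KO_untreated 1 stood apart for Ndufs8 at 11.93 (11.50 to 11.64), for Ndufa12 at 11.63 (11.11 to 11.23) and for Atp5c1 at 12.98 (12.35 to 12.58). The same array was low for Ndufa2 at 11.26 (11.59 to 11.75) and high for the mean deviation of complex II at 0.23 (-0.15 to -0.06). KO_untreated 4 was low for Cox7a2l at 10.17 (10.47 to 10.63). Among KO_antibiotic arrays, replicate 2 was high for Cox6a2 at 6.69 (4.69 to 5.32), replicate 4 low for Atp5c1 at 12.64 (12.89 to 13.04) and replicate 6 low for Atp5g2 at 8.76 (9.57 to 9.80).

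WT_antibiotic 4 was high for Ndufa5 at 9.22 (8.58 to 8.76) and low for Cox7a1 at 10.84 (11.20 to 11.35) and Ndufv3 at 12.06 (12.38 to 12.43). Among WT_untreated arrays, replicate 3 was high for Cox6c at 13.24 (13.10 to 13.13), replicate 5 high for Sdhc at 11.19 (10.74 to 10.87) and replicate 4 low for Atp5pb at 10.41 (10.82 to 10.97).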

How the results depend on the processing

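Counts of called OXPHOS probes moved most with the scaling. The share of all probes called in the same setting is in brackets. With median scaling over all probes the count was 0 in untreated KO against WT (1.6%). With antibiotics it was then 0 in WT (1.19%) and 0 in KO (6.42%). With scaling over probes detected on all arrays these counts were 4 (10.3%), 1 (3.24%) and 4 (10.8%). With no filter on dim probes the first was 5 (2.17%). With only the groups compared in the fit the counts with antibiotics were 0 in WT (4.89%) and 5 in KO (10.4%). With KO_untreated held by the array without the suffix the set's median was 0.07 in untreated KO against WT and 0.05 with antibiotics in KO. No counts are given there, since 1 array has no spread. Leaving out 1 array gave counts of 0 to 8 in untreated KO against WT. With antibiotics it gave 0 to 4 in WT and 3 to 8 in KO. For KO against WT with antibiotics and for the interaction it gave 0 to 0. The cause was not tested. The other settings run left these counts within 1.5 times. The replicate block gave 11 in untreated KO against WT (16.8% of all probes, against 10.9% in the main fit). It gave 3 with antibiotics in WT (4.94%) and 6 with antibiotics in KO (12.3%).

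Of 1264 alternative values of 53 named results, 1068 kept direction and side of the threshold, 173 lost the call, 17 gained it and 6 reversed. Only the 20 results called in the main fit could lose a call. The 1068 kept values include those of results not called there, so they do not measure how steady the calls were. In untreated KO against WT, Sdhb turned to 0.137 and 0.0381 with the 2 median scalings and to 0.0627 with KO_untreated held by 1 array, and Cox6a2 turned to -0.35 with that array and to -0.0681 without KO_untreated 4, the lowest of its values with 1 array left out (highest 0.266). With antibiotics in KO, Atp5c1 turned to -0.0553 with that array. A fit with slide as a block was not run because slides are not named. Dim probes (Cox6a2, Cox6b2, Cox8b) lie near background, where only bounds or uncertain differences can be given.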
